A study of Mus musculus with 4 samples.

Results

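The proteasome genes were measured in whole retinas of adult mice in which Nrl, the transcription factor that sets and keeps rod photoreceptor fate, had been deleted. They were taken as every gene with a single symbol that starts with Psm, a letter from a to g and a digit, and 50 of 19421 measured genes met this rule. Of these, 48 encode subunits, activators, inhibitors or assembly chaperones of the proteasome. Psmc3ip, a partner in meiotic recombination, and Psme3ip1, which binds an activator, share the letters but are no subunits. The knockout mice carried CAG-CreERTM and Nrl floxed on both alleles, while the control mice carried the same Cre and 1 floxed allele, so they kept an intact copy of Nrl. Mice of both genotypes received 4-hydroxytamoxifen on each day from postnatal day 42 to 44, and their retinas were taken on day 63. CAG is a promoter active in nearly all cell types, so Cre was not limited to rods. Each of the 4 arrays, 2 per genotype, held RNA pooled from 4 retinas of 2 animals, and the p-values below measure the spread between such pools.

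The proteasome is the barrel-shaped protease that degrades proteins marked with ubiquitin. Its core is built of rings of α and β subunits, of which the β subunits Psmb5, Psmb6 and Psmb7 cut, and a regulatory particle with a ring of ATPases binds, unfolds and feeds in the substrates. Under interferon, and constitutively in immune cells, the cutting subunits are replaced by Psmb8, Psmb9 and Psmb10, which gives the immunoproteasome, and the activator subunits Psme1 and Psme2 are induced with it. These forms favour peptides for presentation on class I molecules. In the retina, microglia are the resident immune cells.

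The promoters of 4 members are shown first, since immunoproteasome genes and the subunits they replace are known to be switched on through different DNA elements. Each sequence is the 250 bases before the transcript start in RefSeq, assembly GRCm38.p6, written from 5′ to 3′ on the strand of the gene. Psmb8 (chr17:34197945-34198194, plus strand) and Psmg1 (chr16:95990961-95991210, minus strand) had the smallest p-values among the members. Psmb5 (chr14:54617996-54618245, minus strand) is the subunit that Psmb8 replaces, and Psmb9 (chr17:34187331-34187580, minus strand) is another immunoproteasome gene. Capitals mark a GAS match (TTCNNNGAA, the element bound by STAT factors) in Psmb8 and Psmg1. In Psmb5 they mark an antioxidant response element match (TGACNNNGC, bound by NRF factors), and in Psmb9 an NF-Y match (CCAAT, here on the opposite strand).
Psmb8: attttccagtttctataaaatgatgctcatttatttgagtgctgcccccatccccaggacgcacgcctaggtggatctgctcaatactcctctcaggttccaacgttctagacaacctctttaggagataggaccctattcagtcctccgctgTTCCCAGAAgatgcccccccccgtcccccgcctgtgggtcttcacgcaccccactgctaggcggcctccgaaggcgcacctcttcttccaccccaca
Psmb5: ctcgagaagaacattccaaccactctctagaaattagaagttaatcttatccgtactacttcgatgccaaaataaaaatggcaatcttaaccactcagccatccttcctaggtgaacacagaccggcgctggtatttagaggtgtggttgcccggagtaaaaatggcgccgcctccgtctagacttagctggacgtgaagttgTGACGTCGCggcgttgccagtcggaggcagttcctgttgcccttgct
Psmb9: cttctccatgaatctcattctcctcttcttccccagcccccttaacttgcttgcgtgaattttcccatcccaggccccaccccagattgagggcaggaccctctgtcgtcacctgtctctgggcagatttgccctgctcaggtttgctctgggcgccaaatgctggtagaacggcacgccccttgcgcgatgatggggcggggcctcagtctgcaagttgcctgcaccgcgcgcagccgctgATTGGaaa
Psmg1: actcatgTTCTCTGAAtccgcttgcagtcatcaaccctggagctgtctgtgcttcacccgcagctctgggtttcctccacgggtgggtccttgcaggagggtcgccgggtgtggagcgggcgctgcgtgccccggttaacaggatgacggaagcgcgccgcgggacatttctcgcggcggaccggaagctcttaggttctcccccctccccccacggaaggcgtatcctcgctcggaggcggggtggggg

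A promoter window was at hand for 42 of the 50 members, and 5 motifs were searched on both strands of the 250 bases. The GAS letters, which read the same on both strands, were found in 2 of the 42 genes, Psmb8 and Psmg1, and in 7.02% of all 32841 RefSeq windows. In Psmb8 the match lay 97 to 89 bases before the start, and in Psmg1 it lay 243 to 235 bases before it. Antioxidant response element letters were found in 5 genes (Psmb5, Psmb6, Psmc6, Psmd9 and Psmd12) and in 10.2% of all windows. The core of the IRF and ISRE motif, bound by interferon regulatory factors, was found in Psmb3, Psmd4 and Psmd9 and in 2.98% of all windows. An NF-kB motif was found in Psme3ip1 and in 1.41% of all windows, and CCAAT in 16 genes and in 33.9% of all windows. Psmb9 and Tap1, a subunit of the peptide transporter of class I presentation, start back to back, and their 300-base windows share 275 bases on opposite strands. Of Psmb8, Psmb9, Psmb10, Psme1 and Psme2, 1 held GAS letters, 0 the antioxidant letters, 0 the IRF and ISRE core and 1 CCAAT. Among 25 constitutive subunits of the core and regulatory particle with a window, these counts were 0, 4, 2 and 10. Members were counted by gene, while the shares of all promoters were counted by window. A match is a description of the letters and does not show that a factor binds there. Nor does the lack of an exact match in these 250 bases show that a gene lacks the element.

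Across the whole table, 39 of 19421 genes passed the test between knockout and control (limma adjusted p under 0.05, 0.201% of genes), 27 higher (0.139%) and 12 lower (0.0618%) in the knockout. This count depended on single arrays and on the model. It was 0 without either control array (1355 without control replicate 1 and 1328 without control replicate 2 at an unadjusted p under 0.05), 7 without knockout replicate 1, 11 without knockout replicate 2, 8 with the replicate number in the model and 128 with a variance trend. The smallest change among the 39 was 0.88 on the log2 scale, or 1.84-fold. Of 8 fixed rod markers 7 were measured, at log2 levels between 7.87 and 12.65. All 7 had both knockout arrays below both controls, against 18.4% of all genes. Gnat1, rod transducin α, had 9.46 and 9.76 in knockout and 12.65 and 12.58 in control (limma adjusted p = 0.00586), and Rom1, a disc protein, also fell. Nrl itself had 7.57 and 7.05 in knockout and 8.21 and 8.13 in control, a difference of −0.86 (SE 0.18, limma adjusted p = 0.289), and where its probes lie relative to the deleted stretch was not analysed here. In whole tissue, fewer cells of a type and less RNA per cell cannot be told apart.

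No proteasome gene passed that test. By limma 0 of the 50 members were called, against 0.201% of all genes, and the smallest adjusted p among them was 0.603. At an unadjusted p under 0.05 there were 2 members, Psmb8 and Psmg1, against 7.07% of all genes. Both were higher in the knockout (2 of 50, against 3.71% of all genes), and 0 were lower (against 3.37%). The median difference, knockout minus control, of the 50 members was 0.019 on the log2 scale, against −0.0026 for all genes. With an array left out, the members' median ran from −0.019 (without control replicate 2) to 0.065 (without control replicate 1), so its sign depended on single arrays. The median size of the members' differences regardless of sign was 0.060 against 0.092. Single members ran from −0.30 (Psmb11) to 0.41 (Psmb8), with 32 above 0 (49.0% of all genes) and 18 below. The 95% interval of the difference lay within 1 log2 unit, or 2-fold, of 0 in 50 of 50 members and in 98.8% of all genes. It lay within 0.5, or 1.41-fold, in 45 members (90.0%) and in 77.6% of all genes. Changes smaller than these intervals could not be resolved.

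**Figure D1:**
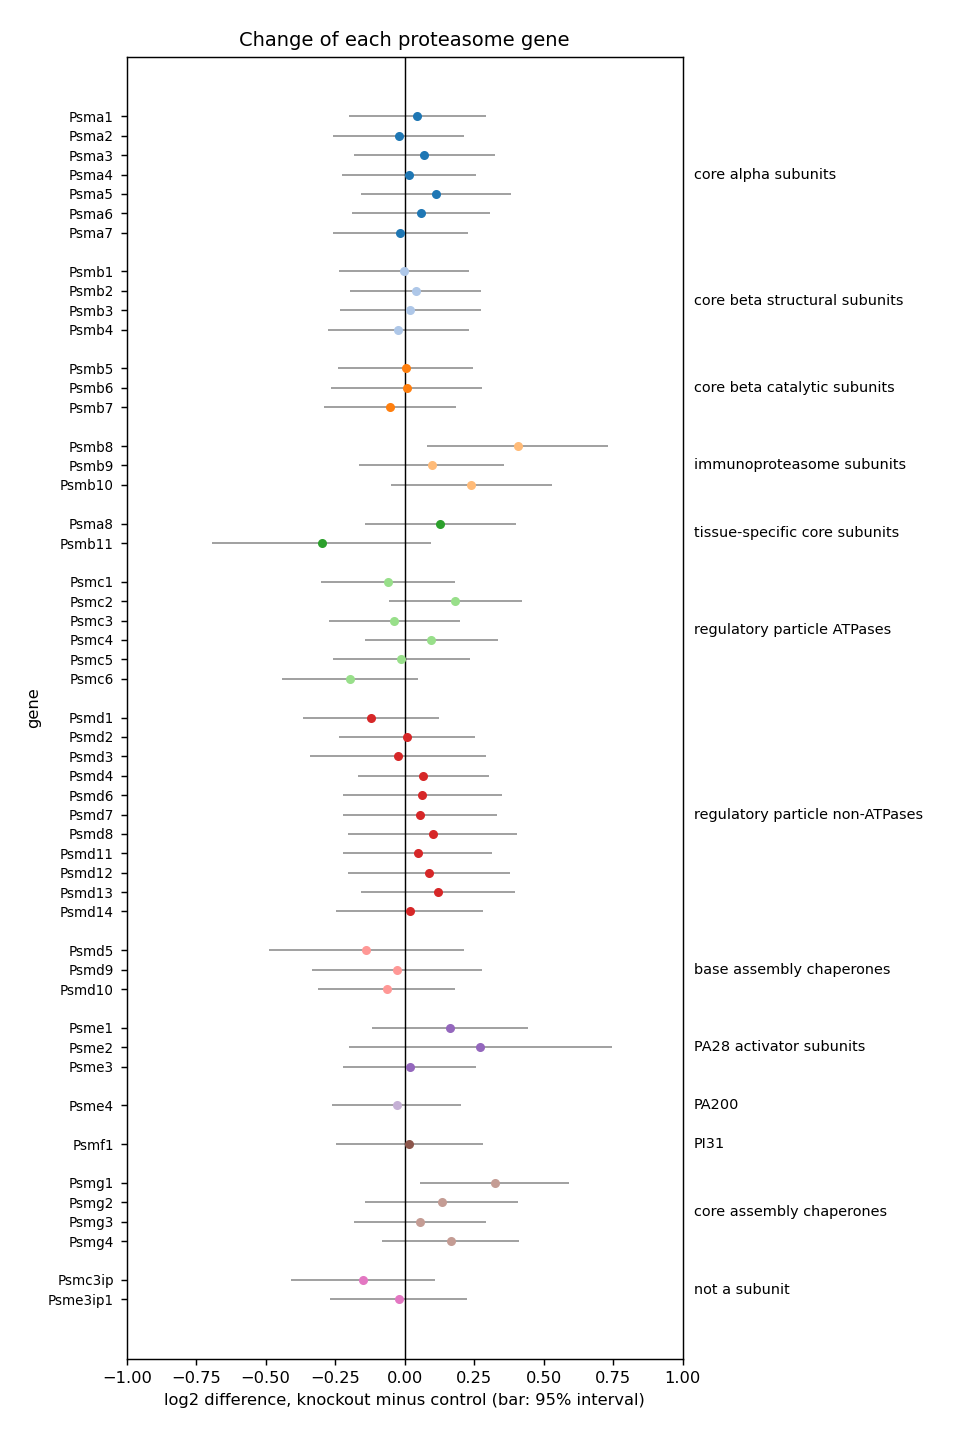
The log2 difference (knockout minus control) of each of the 50 members is plotted by role, with its 95% interval from limma as a bar and 2 arrays per genotype. The constitutive core and regulatory subunits lie between −0.20 and 0.18, while Psmb8 at 0.41 and Psmg1 at 0.32 are the members whose intervals lie above 0.

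Among the cutting subunits of the constitutive core, levels in both genotypes were close. Psmb5, the chymotrypsin-like subunit, had 8.35 and 8.27 in knockout and 8.34 and 8.27 in control. Psmb6, the caspase-like subunit, had 9.19 and 9.01 against 9.14 and 9.05. Psmb7, the trypsin-like subunit, had 9.69 and 9.63 against 9.73 and 9.68. In each of the 3 the arrays of both groups overlapped. The differences were 0.0037 (95% interval −0.24 to 0.25) for Psmb5, 0.0078 (−0.26 to 0.28) for Psmb6 and −0.051 (−0.29 to 0.19) for Psmb7, and those of Psmb5 and Psmb6 were below 0 with each array centred on its median (−0.0096 and −0.0055). The 7 α subunits, Psma1 to Psma7, form the outer rings that gate the barrel. Their differences ran from −0.021 (Psma2) to 0.11 (Psma5), with a median of 0.046, and the arrays overlapped in all 7. The other β subunits Psmb1 to Psmb4, which do not cut, lay between −0.023 and 0.041.

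The regulatory particle held the largest differences of the constitutive set in each direction, both in its ATPase ring, which unfolds substrates. Psmc2, an ATPase of that ring, had 9.07 and 8.998 in knockout and 8.88 and 8.82 in control, a difference of 0.18 (SE 0.099, limma adjusted p = 0.792). Psmc6, another ATPase of the ring, had 9.43 and 9.35 against 9.63 and 9.55, or −0.20 (SE 0.10, limma adjusted p = 0.781). In both genes the arrays of the groups did not overlap, and neither passed the test. Psmc4 also had both knockout arrays above both control arrays, with 0.096, and Psmc3 both below, with −0.037. Over all genes, both knockout arrays lay above both controls in 17.0% and below in 18.4%. Psmc1 and Psmc5 overlapped, at −0.060 and −0.012. The 6 ATPases had a median of −0.025.

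Of the 11 non-ATPase subunits, 9 lay above 0 (49.0% of all genes), with a median of 0.055. Psmd1, a large scaffold of the base, had 9.20 and 9.10 in knockout and 9.29 and 9.25 in control, a difference of −0.12 (95% interval −0.37 to 0.12) with no overlap. Psmd4, a ubiquitin receptor, had 7.97 and 7.97 against 7.93 and 7.87, or 0.067, also with no overlap. Psmd11, a subunit of the lid, had 8.27 and 8.16 against 8.25 and 8.09, or 0.047 with overlap. Psmd14, the enzyme that cuts ubiquitin off substrates, had 9.76 and 9.60 against 9.71 and 9.61, or 0.018 with overlap. Without control replicate 2, Psmd1 had −0.14, Psmd4 0.039, Psmd11 −0.036 and Psmd14 −0.030. The count above 0 was not retaken with an array left out. The arrays also overlapped in the remaining Psmd2, Psmd3, Psmd6, Psmd7, Psmd8, Psmd12 and Psmd13, with differences from −0.023 (Psmd3) to 0.12 (Psmd13).

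Over the 31 constitutive subunits, 0 were called by limma (0.201% of all genes), with 0 at an unadjusted p under 0.05 (7.07% of all genes). Their median difference was 0.018, with 20 above 0 (49.0% of all genes) and 11 below. Both knockout arrays lay above both controls in 3 of the 31 (17.0% of all genes) and below in 3 (18.4% of all genes). The intervals reached from −0.44 to 0.42 at the widest, so a change of 1.41-fold lay outside the interval of each of the 31.

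The immunoproteasome genes had positive differences, none of which passed the test. Psmb8, which replaces Psmb5, had 6.16 and 5.96 in knockout and 5.52 and 5.79 in control. Its mean was 6.06 ± 0.14 against 5.66 ± 0.18 (SD, n = 2 each), a difference of 0.41 (SE 0.13, limma adjusted p = 0.603) or 1.33-fold, with a 95% interval of 1.06-fold to 1.66-fold. Both knockout arrays lay above both controls, although the nearest values, 5.96 and 5.79, were closer to each other than the replicates of either group were. Psmb10, which replaces Psmb7, had 6.32 and 6.56 against 6.22 and 6.18, a difference of 0.24 (95% interval −0.048 to 0.53, limma adjusted p = 0.767), also without overlap. That difference was 0.12 without knockout replicate 2 and 0.36 without knockout replicate 1. Psmb9, which replaces Psmb6, had 7.06 and 7.20 against 7.08 and 6.98. Its groups overlapped, and the difference was 0.097 (95% interval −0.16 to 0.36).

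The PA28 activator has a form made of Psme1 and Psme2 that interferon induces, and a nuclear form made of Psme3. Psme1 had 8.65 and 8.47 in knockout and 8.46 and 8.32 in control, a difference of 0.16 (95% interval −0.12 to 0.44), and its groups only just stood apart, with 8.466 in knockout replicate 2 and 8.464 in control replicate 1. Psme2 had 6.30 and 6.47 against 6.40 and 5.83, or 0.27 (95% interval −0.20 to 0.75) with overlap. Without control replicate 2, the lowest array, the difference of Psme2 was −0.013. Psme3 had 8.03 and 7.96 against 7.996 and 7.96, or 0.018 (95% interval −0.22 to 0.26). Of the 5 inducible genes Psmb8, Psmb9, Psmb10, Psme1 and Psme2, all 5 had positive differences (49.0% of all genes), with a median of 0.24, and in 3 both knockout arrays lay above both controls (17.0% of all genes).

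**Figure D2:**
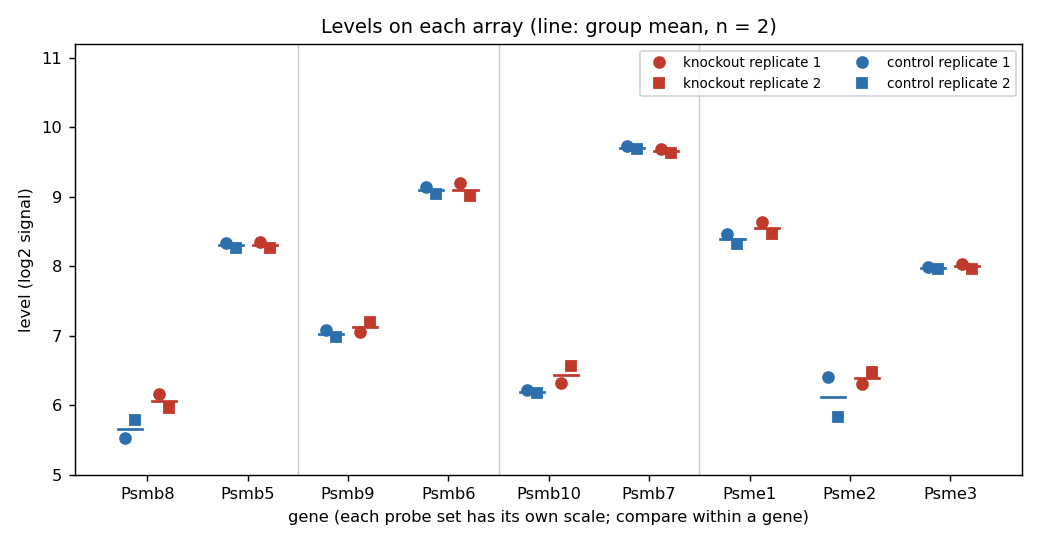
Log2 signal on each of the 4 arrays is plotted for the immunoproteasome genes, the subunits they replace and the PA28 genes, with the group means as lines (n = 2). In Psmb8 and Psmb10 both knockout arrays lie above the controls, in Psmb5, Psmb6 and Psmb7 the groups overlap, and Psme2 has its lowest value, 5.83, in control replicate 2.

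Set against the constitutive subunits on the same array, the inducible genes stood higher in the knockout. The mean log2 level of the 5 inducible genes minus that of the 31 constitutive subunits was −2.005 and −1.92 in knockout and −2.17 and −2.19 in control. The groups did not overlap, and the difference was 0.21, or 1.16-fold, with SDs of 0.057 in knockout and 0.014 in control (n = 2 each). The constitutive mean itself was 8.90 and 8.86 in knockout and 8.91 and 8.81 in control. Without Psme2 the difference was 0.21. Relative to Psmb5, Psmb8 was higher by 0.40 in the knockout, and relative to Psmb7, Psmb10 was higher by 0.29, both without overlap. Psmb5 and Psmb7 themselves differed by 0.0037 and −0.051, so these values largely repeat those of Psmb8 and Psmb10. Both knockout arrays lay above both controls in 17.0% of all single genes, and no such share was taken for pairs. Psmb9 relative to Psmb6 differed by 0.089, and its knockout arrays lay on either side of the controls. With 2 arrays against 2 an exact permutation test cannot give a p under 0.333, so no test is attached to these means.

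**Figure D3:**
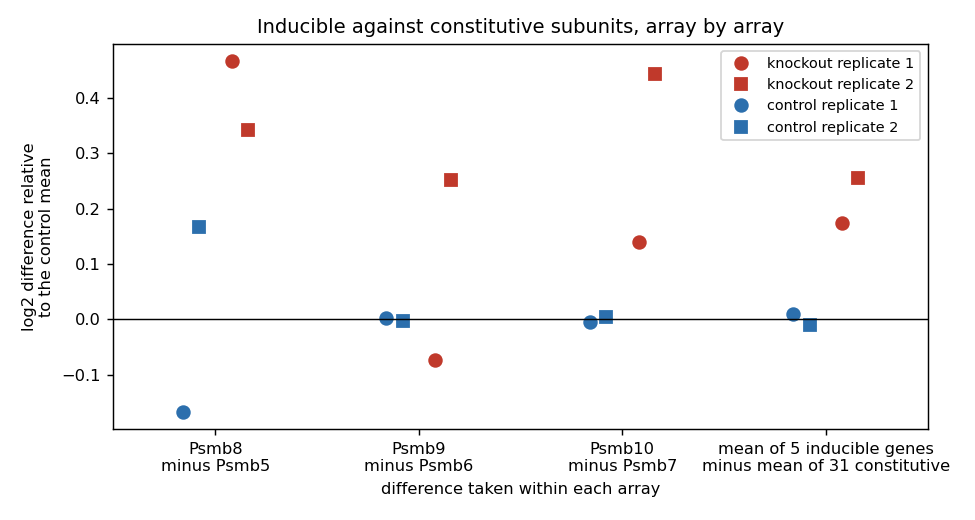
For each array, the log2 level of an immunoproteasome gene minus that of the subunit it replaces is plotted relative to the control mean, beside the mean of the 5 inducible genes minus the mean of the 31 constitutive subunits. The knockout arrays lie above the controls for Psmb8, for Psmb10 and for the means, and on both sides of the controls for Psmb9.

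The assembly chaperones of the core, which help the α ring to form, also had positive differences, none of which passed the test. Psmg1 had 7.78 and 7.60 in knockout and 7.41 and 7.32 in control, a difference of 0.32 (SE 0.11, limma adjusted p = 0.625), or 1.25-fold with a 95% interval of 1.04-fold to 1.51-fold. Psmg2, which forms a dimer with Psmg1, had 7.64 and 7.46 against 7.47 and 7.36, or 0.13 with overlap. Psmg4 had 6.79 and 6.70 against 6.62 and 6.53, or 0.17 (95% interval −0.081 to 0.41) without overlap. Psmg3, its partner, had 6.20 and 6.23 against 6.13 and 6.19, or 0.055, also without overlap. The 4 genes had a median of 0.15, and 0 were called by limma (0.201% of all genes), with 1 at an unadjusted p under 0.05 (7.07% of all genes). In 3 of the 4 both knockout arrays lay above both controls (17.0% of all genes).

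The chaperones that assemble the base of the regulatory particle lay below 0. Psmd5 had 7.26 and 7.10 in knockout and 7.49 and 7.14 in control, or −0.14, and without control replicate 1 its difference was 0.037. Psmd9 had −0.028 and Psmd10 −0.065, and the arrays overlapped in all 3. Psme4, the PA200 activator, had 8.86 and 8.88 against 8.89 and 8.90, or −0.029 (95% interval −0.26 to 0.20), with both knockout arrays just below both controls. Psmf1, the PI31 inhibitor, had 6.65 and 6.61 against 6.52 and 6.70, or 0.017 (95% interval −0.25 to 0.28).

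Core subunits known from other tissues were measured as well. Psma8, the α subunit of the testis, had 4.13 and 4.30 in knockout and 4.03 and 4.14 in control. Psmb11, the β subunit of the thymus, had 5.24 and 5.66 against 5.65 and 5.84, a difference of −0.30 (95% interval −0.69 to 0.094) with overlap. It was −0.090 without knockout replicate 1 and −0.51 without knockout replicate 2. The mean signals of Psma8, Psmb11 and Psmb8 lay under the 50th percentile of all genes, and no detection values were used, so how far they lie above background was not tested. Psmc3ip had 6.55 and 6.70 against 6.74 and 6.80, or −0.15, with both knockout arrays lower, and Psme3ip1 had −0.022.

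Counted over all 50 members, both knockout arrays lay above both controls in 9 (17.0% of all genes) and below in 5 (18.4% of all genes). The 9 were Psmb8, Psmb10, Psme1, Psmc2, Psmc4, Psmd4, Psmg1, Psmg3 and Psmg4, and the 5 were Psmc3, Psmc6, Psmd1, Psme4 and Psmc3ip.

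The constitutive subunits were also compared between replicate numbers, and the result depended on the scaling. In 25 of the 31, replicate 1 lay above replicate 2 in both genotypes, against 25.5% of all genes, and in 1 of the 31, Psmd3, it lay below in both, against 30.4%. The median of replicate 1 minus replicate 2, averaged over both genotypes, was 0.074, while the median genotype difference was 0.018. Of the 5 inducible genes 1, Psme1, had replicate 1 above replicate 2 in both genotypes, and the other 4 were mixed. After quantile normalization over the genes, 13 of the 31 had replicate 1 above replicate 2 in both genotypes, against 26.3% of all genes. The median replicate difference was then 0.021 and the median genotype difference 0.038, so their order turned. Xist, which is transcribed from the silenced X of females, read 4.07 in knockout replicate 1, 4.09 in control replicate 1, 10.66 in knockout replicate 2 and 10.47 in control replicate 2. Sex and replicate number therefore cannot be told apart. Within replicate number 1 and within replicate number 2, knockout minus control was 0.64 and 0.17 for Psmb8, 0.098 and 0.38 for Psmb10 and 0.18 and 0.14 for Psme1. It was −0.024 and 0.22 for Psmb9 and −0.100 and 0.64 for Psme2, so these genes differed in sign between the numbers. Some genes whose groups overlap had the same sign within both numbers, such as Psmb11 (−0.42 and −0.18), Psma5 (0.095 and 0.13) and Psmg2 (0.17 and 0.10). Over all members the knockout was higher within both numbers in 17 of 50 (26.3% of all genes) and lower within both in 10 (28.3% of all genes). The inducible minus constitutive difference was 0.16 within number 1 and 0.26 within number 2.

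**Figure D4:**
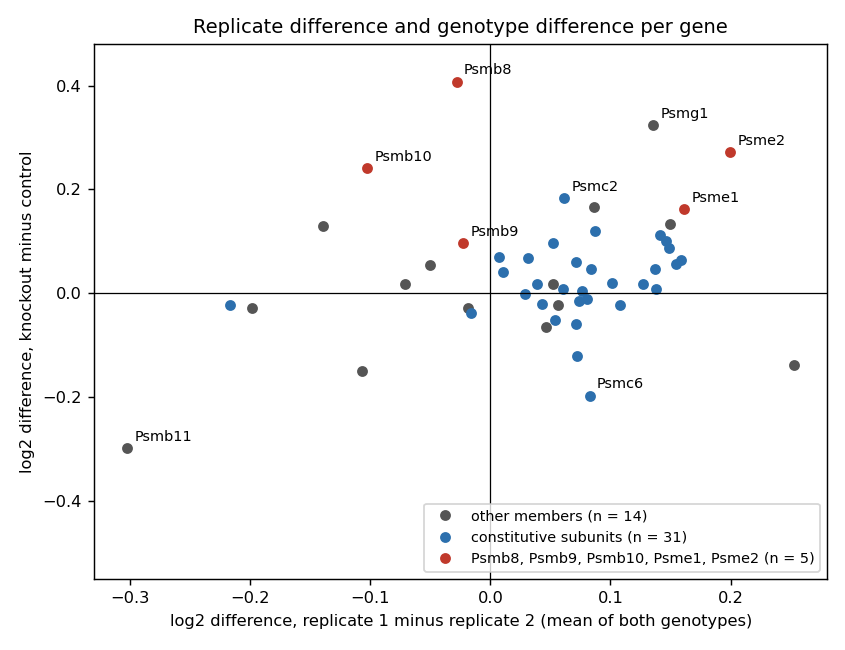
Each of the 50 members is plotted by its log2 difference between replicates 1 and 2, averaged over both genotypes, and by its log2 difference between knockout and control. In 25 of the 31 constitutive subunits replicate 1 is the higher in both genotypes (25.5% of all genes). After quantile normalization over the genes, not plotted, this count is 13 (26.3% of all genes). All 5 inducible genes lie above 0 in the genotype difference (49.0% of all genes).

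Some members had several probe sets, and these did not always share a sign. Of the 5 such genes, Psma3 had 0.070 at the probe set used and 0.089 and −0.0065 at the others. Psmb3 had 0.020 at the probe set used and −0.13 at the other, and Psmc1 had −0.060 and 0.096. Psma5 had 0.11 and 0.17, and Psmd2 had 0.0081 and 0.075. RefSeq lists pseudogenes of several members, among them Psma5, Psmb5, Psmb6 and Psmb7, and hybridisation shared with such copies was not tested.

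Other genes of the pathway did not pass the test either. Of 23 genes listed as partners and regulators of the proteasome 19 were measured. By limma 0 were called (0.201% of all genes), with 0 at an unadjusted p under 0.05 (7.07%). Of the 19, 7 lay above 0 (49.0% of all genes) and 12 below, and the median was −0.014. Nfe2l1, which encodes NRF1, the factor that raises proteasome genes when degradation falls short, had 7.93 and 7.87 in knockout and 7.91 and 7.77 in control, or 0.058. Pomp, the maturation protein of the core, had 10.36 and 10.25 against 10.33 and 10.28, or −0.0039. The smallest p-value in the list was that of Proser1, at −0.27 (limma adjusted p = 0.750), whose link to the proteasome was not examined here. Next came Ubqln1, a shuttle that carries ubiquitinated proteins to the proteasome, at 0.12, and Ecpas, a proteasome adaptor, at −0.11. Of 8 genes of ubiquitin and its entry enzymes 2 were measured, Uba6 at −0.095 and Uba7 at 0.027. By limma 0 were called (0.201% of all genes), with 0 at an unadjusted p under 0.05 (7.07%). The other 6 were not analysed here.

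Genes that load class I molecules were compared because the immunoproteasome supplies their peptides. Of 11 listed 9 were measured, and 0 were called by limma (0.201% of all genes), with 1 at an unadjusted p under 0.05 (7.07%). Of the 9, 8 lay above 0 (49.0% of all genes), and the median was 0.11. B2m, the light chain of class I, had 10.51 and 9.96 in knockout and 8.97 and 8.55 in control, a difference of 1.48 (SE 0.22, limma adjusted p = 0.122) or 2.78-fold, and its arrays did not overlap. The other 8 lay between −0.14 (Tapbpl) and 0.14 (Tapbp). Tap2, the partner of Tap1 in the transporter, had 0.14 without overlap, and Tap1, which shares its promoter region with Psmb9, had 5.90 and 5.98 against 5.67 and 5.97, or 0.12 with overlap. Of 14 genes that induce the immunoproteasome 12 were measured, with a median of 0.033. By limma 0 were called (0.201% of all genes), with 0 at an unadjusted p under 0.05 (7.07%). Irf9, the DNA-binding subunit of an interferon response complex, had 0.25 (limma adjusted p = 0.780), the kinase Jak1 −0.16 and Stat2, another subunit of that complex, 0.14. Ifng, which encodes interferon γ, had 5.42 and 5.60 against 5.40 and 5.56, or 0.026.

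Microglial markers were examined beside the inducible genes, since immune cells carry the immunoproteasome. Of 12 listed 11 were measured, and 2 rose (0.139% of all genes called higher), Ctss by 1.53 (limma adjusted p = 0.0327) and Tyrobp by 1.12 (limma adjusted p = 0.0347). By limma 7 had an unadjusted p under 0.05, 6 higher (3.71% of all genes) and 1, Tmem119, lower (3.37%). Of the 11, 8 lay above 0 (49.0% of all genes) and 3 below (Tmem119 at −0.40, Trem2 at −0.071 and Itgam at −0.039), with a median of 0.34. Both knockout arrays lay above both controls in 6 (17.0% of all genes) and below in 2, Tmem119 and Itgam (18.4%). The summed linear signal of the 11 was 1268 and 1203 in knockout and 697.9 and 717.3 in control. The signal of no marker reads 0 on an array. This sum weighs Ctss and Tyrobp most, the 2 with the highest signal on every array. The mean log2 level of the 11 was 6.14 and 6.15 in knockout and 5.67 and 5.76 in control. The part of microglia in the values of Psmb8, Psmb10 and Psme1 was not tested. Of 10 T and NK lymphocyte markers 9 were measured, with 0 called by limma (0.201% of all genes) and 0 at an unadjusted p under 0.05 (7.07%). Their median was 0.012, with sums of 281.3 and 299.3 against 287.0 and 297.2. The 6 endothelial markers had 0 calls by limma (0.201% of all genes), with 0 at an unadjusted p under 0.05 (7.07%). Their median was −0.031, with sums of 425.9 and 412.9 against 421.7 and 401.4. The 6 Müller glia markers had 0 calls by limma (0.201% of all genes), with 3 at an unadjusted p under 0.05 (7.07%). Their median was 0.012, with sums of 1297 and 1255 against 1228 and 1249. Gfap, a gene of reactive glia, had 0.70 (limma adjusted p = 0.317) and Vim 0.56 (limma adjusted p = 0.219), both with the knockout arrays above the controls, while Glul, glutamine synthetase, had −0.37 (limma adjusted p = 0.518). Among 7 rod markers 2 fell (0.0618% of all genes called lower), with a median of −0.76. The 8 cone markers, split evenly by sign (4 and 4), had a median of 0.069. Gnat2 and Gnb3 rose (0.139% of all genes called higher), while Opn1sw had −0.52 (limma adjusted p = 0.281). Opn1sw, Opn1mw and Cngb3 had both knockout arrays below both controls (18.4% of all genes), and Gnat2, Gnb3 and Pde6c had both above (17.0%).

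**Figure D5:**
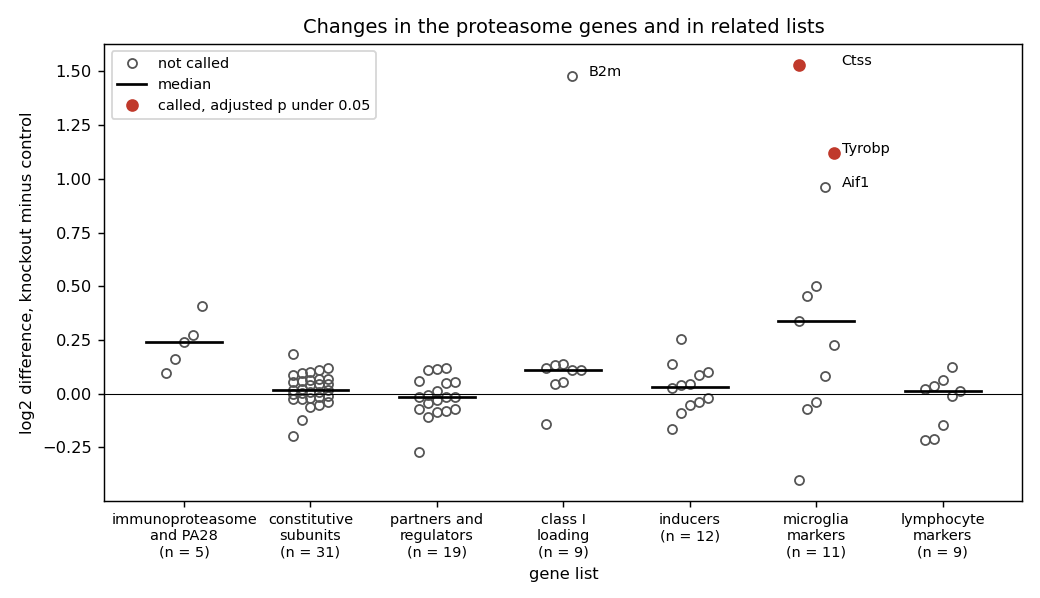
Each point is the log2 difference (knockout minus control) of a measured gene, by list, with the list's median as a line and called genes filled. The medians are 0.24 for the 5 inducible genes, 0.018 for the 31 constitutive subunits and 0.34 for the 11 microglial markers.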

How the data were processed

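Affy and limma are the tools listed in the submitters' processing notes, without a role, and how background was corrected and arrays normalized is not given in these sources. The authors deposited values taken here as log2 from their range (1.34 to 12.75), for 21897 probe sets, with array medians of 5.99 to 6.04. The platform annotation gave 20877 probe sets 1 symbol, 175 several and 845 none. Where a gene had several, the probe set of highest mean was used, giving 19421 genes, and low signals were kept.

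Genotypes were tested by limma 3.58.1 under R 4.3.3, two-sided, with Benjamini-Hochberg adjustment over all genes, after the steps were tested on simulated data. Intervals cover 95%. The replicate number was not in the model. The number of arrays limits the precision. Promoter letters came from RefSeq, and all 50 members matched it by gene ID.

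Members and lists were chosen with earlier results of these data known. The naming rule took Nrl, the inducible, cutting, activator, inhibitor, chaperone and tissue-specific genes with Psmd4, Psmd11, Psmd14 and Psmc3ip, called members, the 5 largest differences each way and members whose probe sets differed in sign. From other lists it took called genes, or the 3 smallest p-values where none was called. Further genes, such as Psmc3, Psmc4, Nfe2l1, Pomp, Gfap and Opn1sw, were named after their values were seen. Alternatives were other scalings, a signal filter, probe set means, a variance trend, the replicate number as a block and each array left out.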

Additional observations from a re-analysis of the deposited data

How the results depend on the processing

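By limma 0 of the members were called under any alternative that kept all arrays. At an unadjusted p under 0.05 there were 1 to 4 members under these, against 7.03% to 10.1% of all genes. Over all genes 89 were called once those in the lower 50 percent of mean signal were left out, 128 with a variance trend and 8 with the replicate number as a block. The replicate block left 0 members called and 3 at an unadjusted p under 0.05 (Psmb8, Psmg1 and Psmb11), against 8.27% of all genes under that block. Replicate 1 minus replicate 2 correlated with r = 0.239 between genotypes across genes, which are not independent replicates, and the number follows the Xist level in both genotypes, but the labels do not say that it pairs the samples. Leaving out any single array gave 0 to 11 calls over all genes, the 0 being the limma count without control replicate 1 or control replicate 2 (1355 and 1328 at an unadjusted p under 0.05). The inducible minus constitutive difference was 0.17 to 0.25 with an array left out, and the signal filter, which removes Psmb8, gave none. It was 0.16 within replicate number 1 and 0.26 within replicate number 2. The count of constitutive subunits with replicate 1 higher in both genotypes went from 25 to 13 after quantile normalization over the genes. That setting, the split by replicate number and the omission of Psme2 were chosen after seeing the data.

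Among the 31 genes of the naming rule, differences near 0 changed sign, and so did those of Psme2 (0.27) and Psmd5 (−0.14). Signs of the other members under these settings are not given here. With each array centred on its median, Psmb5 had −0.0096 and Psmb6 −0.0055, and with the mean of a gene's probe sets Psmb3 had −0.053 and Psmc1 0.018. With an array left out, the ranges of those of the 31 that changed sign were −0.036 to 0.044 for Psmb5, −0.083 to 0.099 for Psmb6, −0.041 to 0.081 for Psmb3, −0.018 to 0.054 for Psme3, −0.073 to 0.11 for Psmf1, −0.15 to 0.097 for Psmd9, −0.036 to 0.13 for Psmd11, −0.061 to 0.097 for Psmd14, −0.31 to 0.037 for Psmd5, −0.013 to 0.56 for Psme2. Psmb8 lay between 0.28 and 0.54 and Psmg1 between 0.24 and 0.41, and the lone array of a genotype was assumed to vary like the others. The cause of these moves was not tested.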
